A study of Mus musculus with 32 samples.

Results

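The 10 genes Pecam1, Cdh5, Kdr, Flt1, Tie1, Tek, Plvap, Esam, Emcn and Egfl7 mark the endothelial cells of the islet capillaries, and their RNA was followed in all 4 groups of the study. They were chosen by symbol as endothelial receptors, junction proteins, surface proteins and a secreted factor. They are 10 of the 36595 genes of the deposited count table, and all 10 passed the filter on low counts that left 16428 genes for testing. Both genotypes were on a C57BL/6NHsd background, and male and female mice were used at 10 weeks of age. In hIAPP mice, human IAPP replaced the mouse Iapp gene at its own locus by homologous recombination, and the mIAPP mice were their wild-type littermates. Human islet amyloid polypeptide can form amyloid deposits in islets, which mouse IAPP does not, and amyloid formation is named in the title of the series. Islets of both genotypes recovered overnight at 11.1 mM glucose and were then cultured for 48 h at either 11.1 or 16.7 mM, so all 4 groups are islets kept outside the body, without blood flow. Each of 8 experiment sets gave 1 library to every group, 32 libraries in all, and the number of mice behind a set is not stated. With the set as a block, the p values rest on the spread between libraries that is left after differences between sets are removed.

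Islets are threaded by a dense bed of fenestrated capillaries, and beta cells secrete vascular endothelial growth factor A (VEGF-A), on which these capillaries depend. Kdr (VEGFR2) is the main signalling receptor for VEGF-A on endothelial cells, and Flt1 (VEGFR1) binds VEGF-A tightly and limits what reaches Kdr. Tek (TIE2) is the receptor for the angiopoietins, and Tie1 is its partner, with no established ligand of high affinity. Pecam1, Cdh5 (VE-cadherin) and Esam are adhesion proteins of the contacts between endothelial cells. Plvap builds the diaphragms of fenestrae, Emcn is a surface sialomucin of capillaries and venules, and Egfl7 is a factor secreted by endothelial cells.

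The libraries held 16.1 to 43.7 M counts, and mitochondrially encoded genes took a share of them that differed between libraries. At 16.7 mM glucose its median was 3.50% for hIAPP and 7.29% for mIAPP libraries, and at 11.1 mM it was 18.1% and 20.4%. One mIAPP library at 16.7 mM, that of set 7, stood at 37.0%, the highest of the 32. The replaced gene, Iapp, was lower in hIAPP than in mIAPP islets, by a log2 fold change of -1.14 at 16.7 mM (adjusted p = 4.21e-08) and of -0.83 at 11.1 mM (adjusted p = 4.24e-05). Whether reads of the human insert were counted under Iapp is not given in the sources used here. These and all adjusted p values below come from edgeR's quasi-likelihood test with the set as a block and Benjamini-Hochberg adjustment over all genes tested, with 0.05 as the threshold.

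RNA of the 10 endothelial genes was lowest in hIAPP islets at 16.7 mM glucose. Their summed level, in CPM (counts scaled by TMM to a common library size), ran from 22.8 to 67.7 CPM there, with a median of 51.4. In mIAPP islets at 16.7 mM it ran from 45.7 to 157 CPM, with a median of 84.1. At 11.1 mM the hIAPP islets spanned 78.4 to 209 CPM around a median of 120, and the mIAPP islets 75.8 to 226 CPM around a median of 118. The hIAPP libraries at 16.7 mM thus all lay below all libraries of both 11.1 mM groups, and they overlapped with those of mIAPP islets at 16.7 mM. All 10 genes had counts in all 32 libraries, with the lowest, 4 counts, for Tek. In whole islets, fewer endothelial cells and less RNA of these genes per cell cannot be told apart.

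**Figure D1:**
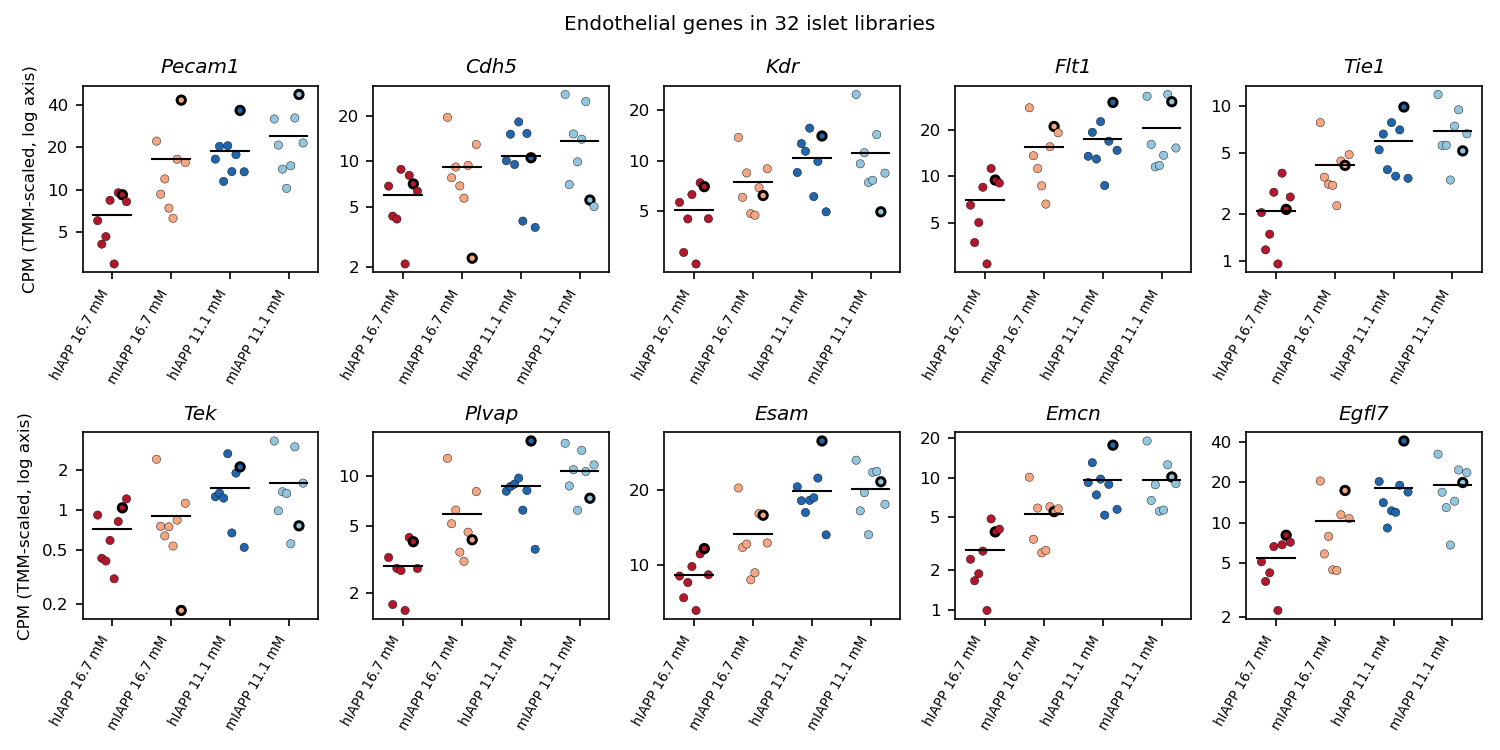
TMM-scaled CPM (log axis) of each endothelial gene in the 4 groups; points are the 8 libraries of a group in the order of their sets, the line is the mean, and thick outlines mark set 7. In every panel the hIAPP islets at 16.7 mM have the lowest mean, and Pecam1 and Cdh5 differ in where the mIAPP library of set 7 at 16.7 mM lies, at 43.2 and 2.28 CPM.

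The genotype comparison at 16.7 mM glucose called 7 of the 10 genes lower with hIAPP: Pecam1, Flt1, Tie1, Plvap, Emcn, Egfl7 and Esam. Kdr, Cdh5 and Tek had negative fold changes that did not pass the test. The median log2 fold change of the 10 was -0.84, beside -0.01 for all genes tested. Of all genes tested, 11.2% were called lower and 9.27% higher in this comparison. At 11.1 mM glucose, edgeR called 0 of the 10, beside 0.128% of all genes tested in either direction, and DESeq2 called 0, beside 0.213%. By edgeR's unadjusted p, 0 of the 10 were under 0.05, as were 6.82% of all genes tested. The median log2 fold change of the 10 there was -0.16.

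The higher glucose level went with lower endothelial RNA in both genotypes. In hIAPP islets all 10 genes were lower at 16.7 than at 11.1 mM, with a median log2 fold change of -1.43, where 33.3% of all genes tested were called lower and 32.2% higher. In mIAPP islets 6 of the 10 were lower, with a median of -0.70, where 22.7% of all genes tested were called lower and 24.9% higher. The comparisons share groups, so their values are set side by side and are not independent of each other. Whether the glucose difference itself differs between the genotypes is the interaction, which 0 of the 10 passed in edgeR and 1, Flt1, passed in DESeq2 (adjusted p = 0.0373). After adjustment 3.12% of all genes tested were called. By edgeR's unadjusted p, 6 of the 10 were under 0.05, as were 18.6% of all genes tested. The median interaction of the 10 genes was -0.68 on the log2 scale, and its sign was negative for each of them.

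**Figure D2:**
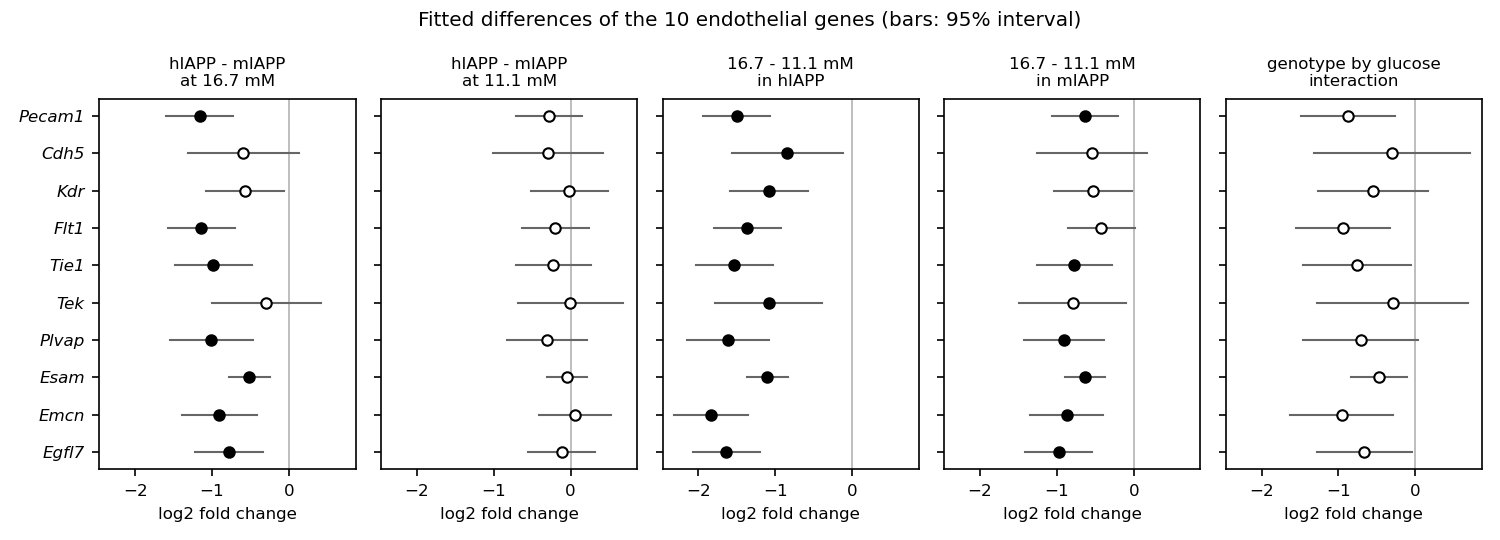
Log2 fold change of each endothelial gene in the 5 comparisons, with its 95% interval; filled points passed an adjusted p of 0.05 in edgeR. All 10 points are filled for glucose in hIAPP islets, 7 for genotype at 16.7 mM, 6 for glucose in mIAPP islets and 0 in the other panels.

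Of the VEGF receptors, Flt1 had the larger genotype difference at 16.7 mM. Flt1 is on chromosome 5 at 147561604-147726011, minus strand (GRCm38). Its level at 16.7 mM ran from 2.70 to 11.2 CPM in hIAPP islets, with a median of 7.48, and from 6.60 to 27.7 CPM in mIAPP islets, with a median of 14.5. At 11.1 mM it ran from 8.70 to 30.0 CPM in hIAPP islets (median 15.8) and from 11.5 to 33.8 CPM in mIAPP islets (median 15.6). The groups at 16.7 mM overlapped, but the hIAPP library was the lower of the pair in 8 of 8 sets. The fitted log2 fold change was -1.14 ± 0.21 (SE), which is 2.20-fold lower (adjusted p = 0.000669). Between the glucose levels, Flt1 fell by 1.36 ± 0.21 on the log2 scale in hIAPP islets (adjusted p = 7.91e-06). In mIAPP islets its fold change was -0.42 ± 0.21 (adjusted p = 0.104). Its interaction, -0.94 ± 0.30, had an adjusted p of 0.0881 in edgeR.

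Kdr is on chromosome 5 at 75932827-75978458, minus strand. At 16.7 mM its level ran from 2.43 to 7.40 CPM in hIAPP islets (median 5.08) and from 4.74 to 13.8 CPM in mIAPP islets (median 6.56). The range at 11.1 mM was 4.96 to 15.6 CPM (median 10.6) and from 4.96 to 24.8 CPM (median 9.01) in the same order. The library at 24.8 CPM and that at 13.8 CPM were both mIAPP libraries of set 1. At 16.7 mM the hIAPP library was the lower in 5 of 8 sets, and the fold change of -0.57 ± 0.25 had an adjusted p of 0.102. In hIAPP islets Kdr fell by 1.08 ± 0.25 between 11.1 and 16.7 mM (adjusted p = 0.000564). The matching fold change in mIAPP islets was -0.53 ± 0.25 (adjusted p = 0.0795).

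RefSeq's promoter table for GRCm38.p6 held 6 of the 10 genes, with 8 start sites. Members of the ETS family of transcription factors, among them Erg and Fli1, bind many endothelial promoters around a GGAA core, so the 250 bases before each start were searched for AGGAAG on both strands (its other strand reads CTTCCT). It was found at 5 of the 8 starts, or 62.5%, from 4 of the 6 genes, and in 29.5% of all 32851 promoters in the table. The windows of Flt1 (chr5:147726012-147726261, minus strand) and Kdr (chr5:75978456-75978705, minus strand) are shown because they differ in matches to AGGAAG. Capitals mark these matches, and the shorter GGAA core was not searched.
Flt1: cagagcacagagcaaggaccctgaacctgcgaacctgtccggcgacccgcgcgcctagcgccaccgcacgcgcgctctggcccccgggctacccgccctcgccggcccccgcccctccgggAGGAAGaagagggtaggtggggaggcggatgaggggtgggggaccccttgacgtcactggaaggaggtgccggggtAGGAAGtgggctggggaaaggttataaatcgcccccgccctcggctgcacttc
Kdr: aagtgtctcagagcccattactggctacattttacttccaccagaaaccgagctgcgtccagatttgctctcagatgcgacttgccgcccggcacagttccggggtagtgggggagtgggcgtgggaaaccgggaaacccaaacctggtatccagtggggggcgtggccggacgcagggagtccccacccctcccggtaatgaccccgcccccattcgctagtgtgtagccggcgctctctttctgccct
In Flt1 the first bases of the matches lie 129 and 53 bases before the start, and the Kdr window holds no match to AGGAAG. The Kdr window does hold the GGAA core on both strands, as GGAA and as TTCC, so the receptors do not differ in having that core. The windows of Emcn (chr3:137340828-137341077, plus strand) and of 1 of the 3 Egfl7 starts (chr2:26583615-26583864, plus strand) are shown because the glucose groups of these genes did not overlap in hIAPP islets, as described below.
Emcn: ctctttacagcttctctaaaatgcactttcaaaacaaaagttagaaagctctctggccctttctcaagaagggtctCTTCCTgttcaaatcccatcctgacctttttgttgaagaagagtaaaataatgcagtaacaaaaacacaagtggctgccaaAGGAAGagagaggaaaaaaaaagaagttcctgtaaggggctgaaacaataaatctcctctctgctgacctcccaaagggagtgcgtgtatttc
Egfl7: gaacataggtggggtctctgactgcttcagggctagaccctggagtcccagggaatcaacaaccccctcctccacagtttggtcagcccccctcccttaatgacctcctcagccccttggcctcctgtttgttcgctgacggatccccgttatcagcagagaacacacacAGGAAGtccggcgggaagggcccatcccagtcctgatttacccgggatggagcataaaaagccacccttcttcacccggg
Emcn has matches 174 and 93 bases before the start, on opposite strands, and this Egfl7 start has 1, at 80 bases. The windows of the other Egfl7 starts, chr2:26580833-26581082 and chr2:26586386-26586635, hold 3 and 0 matches. Tie1 holds 1 match and Tek none, although the Tek window holds TTCC, the GGAA core on the other strand. A match is a description of the letters in the window, not a measured binding site.

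The angiopoietin receptor Tek was the weakest of the 10 in level, and Tie1 followed the main pattern. Tie1 (chromosome 4, 118471191-118490061, minus strand) ran from 0.96 to 3.70 CPM in hIAPP islets at 16.7 mM (median 2.11) and from 2.28 to 7.85 CPM in mIAPP islets (median 3.82). At 11.1 mM its level ran from 3.42 to 9.91 CPM (median 5.93) and from 3.34 to 11.9 CPM (median 6.12). The hIAPP library was the lower in 8 of 8 sets at 16.7 mM, although the groups overlapped. Tie1 was lower by a log2 fold change of -0.98 ± 0.24 there, or 1.97-fold (adjusted p = 0.00689). It fell by 1.53 ± 0.24 with glucose in hIAPP islets (adjusted p = 8.75e-06) and by 0.77 ± 0.24 in mIAPP islets (adjusted p = 0.0103). The mIAPP call was lost in libraries under 10% mitochondrial (adjusted p = 0.168) and without set 5 (adjusted p = 0.0522).

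Tek (chromosome 4, 94739289-94874976, plus strand) ran from 0.31 to 1.21 CPM in hIAPP islets at 16.7 mM (median 0.71) and from 0.18 to 2.39 CPM in mIAPP islets (median 0.75). The lowest of these libraries, mIAPP of set 7, held 4 counts and the highest, mIAPP of set 1, held 93, so the mIAPP group reached past the hIAPP group at both ends. At 11.1 mM Tek spanned from 0.53 to 2.63 CPM in hIAPP islets (median 1.30) and from 0.56 to 3.28 CPM in mIAPP islets (median 1.35). The genotype fold change at 16.7 mM, -0.29 ± 0.34, did not pass (adjusted p = 0.56), and its 95% interval ran from -0.997 to 0.41. Tek fell by 1.09 ± 0.34 with glucose in hIAPP islets (adjusted p = 0.0078). The fold change in mIAPP islets was -0.79 ± 0.34 (adjusted p = 0.0548), lower in 8 of 8 sets.

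Among the junction genes, Pecam1 and Esam passed the genotype test at 16.7 mM, and Cdh5 did not. Pecam1 (chromosome 11, 106654217-106750628, minus strand) ran from 2.97 to 9.51 CPM in hIAPP islets at 16.7 mM (median 7.13) and from 6.27 to 43.2 CPM in mIAPP islets (median 13.8). In the 11.1 mM groups it ran from 11.4 to 36.5 CPM in hIAPP islets (median 17.1) and from 10.2 to 47.3 CPM in mIAPP islets (median 21.1). The highest library of each of the last 3 groups was that of set 7. The log2 fold change between genotypes at 16.7 mM was -1.16 ± 0.21, or 2.23-fold lower (adjusted p = 0.000536), with the hIAPP library lower in 7 of 8 sets. Leaving out the mIAPP library at 43.2 CPM gave -1.05 ± 0.21 (adjusted p = 0.00188). Pecam1 fell by 1.50 ± 0.21 with glucose in hIAPP islets (adjusted p = 1.97e-06), where the groups did not overlap, and by 0.63 ± 0.21 in mIAPP islets (adjusted p = 0.0164). With the log2 mitochondrial share as a covariate these became -0.70 ± 0.30 (adjusted p = 0.113) and -0.32 ± 0.20 (adjusted p = 0.225). The mIAPP call was also lost without the replicate block (adjusted p = 0.222), in libraries under 10% mitochondrial (adjusted p = 0.328) and without set 2 (adjusted p = 0.0525) or set 5 (adjusted p = 0.0578).

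Cdh5 (chromosome 8, 104101625-104144511, plus strand) ran from 2.09 to 8.85 CPM in hIAPP islets at 16.7 mM (median 6.59) and from 2.28 to 19.6 CPM in mIAPP islets (median 8.47). At 11.1 mM it ran from 3.64 to 18.3 CPM (median 10.3) and from 5.01 to 27.8 CPM (median 12.0). The mIAPP library of set 7 at 16.7 mM, the highest of its group for Pecam1, was the lowest for Cdh5. The genotype fold change at 16.7 mM was -0.59 ± 0.35 (adjusted p = 0.233), and without that library -0.78 ± 0.34 (adjusted p = 0.144). With glucose, Cdh5 fell by 0.84 ± 0.35 in hIAPP islets (adjusted p = 0.0409); this call was lost when any 1 of sets 1 to 6 was left out, with adjusted p values of 0.0539 to 0.135. In mIAPP islets the fold change was -0.54 ± 0.35 (adjusted p = 0.213).

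Esam (chromosome 9, 37528078-37538319, plus strand) varied least among the 10, with an SD of its group-centred log2(CPM + 0.5) of 0.34. It ran from 6.53 to 11.6 CPM in hIAPP islets at 16.7 mM (median 9.04) and from 8.68 to 20.4 CPM in mIAPP islets (median 12.2). The range at 11.1 mM was 13.2 to 31.5 CPM (median 18.4) and from 13.2 to 26.3 CPM (median 20.5). Every hIAPP library at 16.7 mM lay below every hIAPP library at 11.1 mM. The genotype difference at 16.7 mM was smaller than that of the other genes that passed, at -0.51 ± 0.13 (adjusted p = 0.00677), or 1.43-fold. The glucose difference was -1.10 ± 0.13 in hIAPP islets (adjusted p = 7.67e-08), beside -0.63 ± 0.13 for mIAPP (adjusted p = 0.000275).

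The diaphragm gene Plvap (chromosome 8, 71497765-71511752, minus strand) ran from 1.57 to 4.29 CPM in hIAPP islets at 16.7 mM (median 2.80) and from 3.09 to 12.7 CPM in mIAPP islets (median 4.89). At 11.1 mM its level ran from 3.64 to 16.1 CPM (median 8.40) and from 6.22 to 15.6 CPM (median 10.7). It was lower in the hIAPP library of 8 of 8 sets at 16.7 mM, with a fold change of -1.01 ± 0.26 (adjusted p = 0.0097), or 2.01-fold; without set 1 this was -0.83 ± 0.27 (adjusted p = 0.0569). Plvap fell by 1.61 ± 0.26 with glucose in hIAPP islets (adjusted p = 1.16e-05) and by 0.91 ± 0.25 in mIAPP islets (adjusted p = 0.00558).

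Emcn (chromosome 3, 137341067-137432185, plus strand) differed between the glucose levels without overlap in hIAPP islets. It ran from 0.99 to 4.87 CPM in hIAPP islets at 16.7 mM (median 2.60) and from 5.20 to 17.6 CPM at 11.1 mM (median 9.03). In mIAPP islets it ran from 2.70 to 10.1 CPM at 16.7 mM (median 5.67) and from 5.58 to 18.9 CPM at 11.1 mM (median 8.92), with overlap. Emcn fell by 1.83 ± 0.23 with glucose in hIAPP islets (adjusted p = 4.96e-07) and by 0.87 ± 0.23 in mIAPP islets (adjusted p = 0.00322). In libraries under 10% mitochondrial the mIAPP call was lost (adjusted p = 0.103). Emcn was lower in hIAPP islets at 16.7 mM by -0.91 ± 0.24 (adjusted p = 0.0099), in 7 of 8 sets. At 11.1 mM its genotype fold change was 0.05 ± 0.23.

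Egfl7 (chromosome 2, 26580014-26593120, plus strand) ran from 2.22 to 8.05 CPM in hIAPP islets at 16.7 mM (median 5.87) and from 9.11 to 40.4 CPM at 11.1 mM (median 15.5), again without overlap. In mIAPP islets it ran from 4.41 to 20.4 CPM at 16.7 mM (median 9.30) and from 6.81 to 32.2 CPM at 11.1 mM (median 18.3). It fell by 1.64 ± 0.21 in hIAPP islets (adjusted p = 6.31e-07) and by 0.97 ± 0.21 in mIAPP islets (adjusted p = 0.000603); in libraries under 10% mitochondrial the mIAPP call was lost (-0.85 ± 0.41, adjusted p = 0.148). The genotype difference at 16.7 mM was -0.78 ± 0.21 (adjusted p = 0.0141); without set 1 it was -0.60 ± 0.22 (adjusted p = 0.083).

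Per kilobase of annotated exon, and averaged over the 32 libraries, Esam stood highest at 5.44 ± 2.14 CPM per kb (SD). Egfl7 followed at 3.68 ± 2.44, Plvap at 3.55 ± 2.04, Pecam1 at 2.65 ± 1.78 and Cdh5 at 2.36 ± 1.48. Below them came Emcn at 1.26 ± 0.80, Flt1 at 1.12 ± 0.62, Tie1 at 0.97 ± 0.54, Kdr at 0.94 ± 0.50 and Tek at 0.25 ± 0.16 CPM per kb. The order was not the same in every group. In hIAPP islets at 16.7 mM, the mean of Cdh5 (1.42) was above that of Pecam1 (1.07). The mean of Kdr (0.56) was above those of Emcn and Flt1 (0.52 each) and Tie1 (0.43) there. In mIAPP islets at 16.7 mM, Flt1 (1.14) was above Emcn (0.98), and Plvap was above Egfl7 in both mIAPP groups. Neighbours in the pooled order differed by less than the larger of their SDs, except Kdr and Tek. The exon length used joins all annotated isoforms of a gene, so the level of a gene with long rare isoforms is understated.

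Since the mitochondrial share differed between the groups as given above, the calls were refitted in 2 ways. With the log2 share as a covariate, 2 of the 10 genes remained called lower in hIAPP islets at 16.7 mM: Flt1 at -0.997 ± 0.28 (adjusted p = 0.034) and Plvap at -1.17 ± 0.33 (adjusted p = 0.043). In that fit 4.58% of all genes tested were called in either direction, beside 20.5% in the main fit. The other shares in this paragraph count both directions as well. The fold change of Pecam1 became -0.68 ± 0.23 (adjusted p = 0.101) and that of Egfl7 -0.45 ± 0.25 (adjusted p = 0.452), while Tie1 kept its size at -0.97 ± 0.31 (adjusted p = 0.0717). In the 18 libraries with under 10% mitochondrial counts, of which 8, 5, 2 and 3 belonged to hIAPP and mIAPP at 16.7 mM and hIAPP and mIAPP at 11.1 mM, 3 genes were called, namely Flt1, Plvap and Emcn, and 6.61% of all genes tested. All 10 fold changes were negative there, with a median of -0.95. For glucose in hIAPP islets, where 65.5% of all genes tested were called in the main fit, the covariate left 7 of the 10 called, beside 19.4%. Pecam1, Cdh5 and Kdr lost their calls. In the low-share libraries 10 were called, beside 22.6% of all genes tested, and the hIAPP group at 11.1 mM held 2 libraries. For glucose in mIAPP islets, 6 were called with the covariate (35.3% of all genes tested) and 2 in the low-share libraries (30.2%). The share in the main fit was 47.5%. What part the share has in these differences was not tested.

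The endothelial genes did not all follow the mitochondrial share in the same way. After the group means were removed, the Pearson correlation of log2(CPM + 0.5) with the log2 share over the 32 libraries was 0.73 for Pecam1, 0.71 for Egfl7 and 0.53 for Flt1. It was 0.43 for Esam, 0.41 for Emcn and 0.30 for Tie1. It was close to 0 for Plvap (0.09), Kdr (0.01) and Tek (-0.03), and it was -0.28 for Cdh5. These are descriptions, since the level and the share come from the same library.

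The ratio of Pecam1 to Cdh5 shows the spread most plainly. Where mitochondrial counts made up less than 10% of the library, in 18 libraries, the ratio of their CPM stayed between 0.88 and 1.43, with a median of 1.12. In the 14 others it ran from 1.14 to 19.0, with a median of 2.35. The highest, 19.0, belonged to the mIAPP library of set 7 at 16.7 mM, with a mitochondrial share of 37.0% and 51 counts of Cdh5. The next, 8.55, belonged to the mIAPP library of set 7 at 11.1 mM, with 34.7% and 58 counts of Cdh5. The ratio of Pecam1 to Kdr rose to 9.54 in these others, from at most 1.93 in the 18. That of Pecam1 to Flt1 reached 2.06, from at most 1.22. The relative levels of these endothelial genes thus differed between libraries with high and low mitochondrial share. The 18 low-share libraries held 8 hIAPP and 5 mIAPP libraries at 16.7 mM, and 2 hIAPP and 3 mIAPP libraries at 11.1 mM. The split by share is therefore in large part also a split by group, and the cause was not tested.

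**Figure D3:**
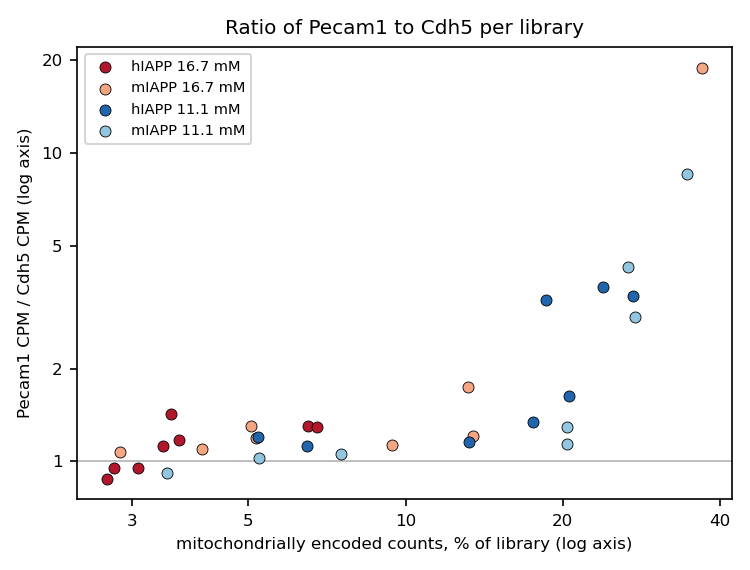
Ratio of Pecam1 to Cdh5 (both in CPM, log axis) against the percentage of mitochondrially encoded counts (log axis) in each of the 32 libraries, coloured by group. Below 10% the ratio lies between 0.88 and 1.43, and above it the 14 libraries spread up to 19.0.

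Within groups, the endothelial genes varied together from library to library. Over the 45 pairs of genes, the group-centred Pearson r across 32 libraries had a median of 0.76, and 37 pairs were above 0.5. Pecam1 and Flt1 had the highest r, 0.89, and Pecam1 and Cdh5 the lowest, 0.18. Cdh5, Kdr and Tek went together, with r of 0.80 to 0.81 between them. Tie1 was the gene nearest to the mean of the other 9, at r = 0.94. Without set 7, the r of Pecam1 with the mean of the others was 0.90, and with it 0.71. These r are descriptions of libraries that share sets and total counts.

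**Figure D4:**
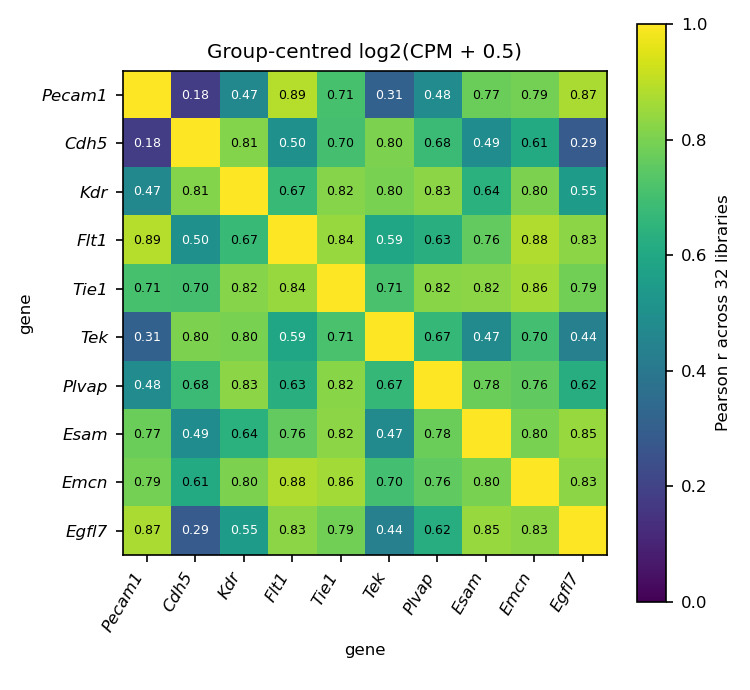
Pearson r of each pair of endothelial genes across 32 libraries, from log2(CPM + 0.5) with group means removed. The cell of Pecam1 and Cdh5 (0.18) is the darkest and that of Pecam1 and Flt1 (0.89) the brightest off the diagonal.

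Among 13989 other genes with a mean of at least 1 CPM, those with the pattern most like the mean of the 10 within groups were Podxl (r = 0.94), Plxnd1 (0.93), Sema3f (0.92), Igfbp3 (0.92), Gimap4 (0.92), Tgfb1i1 (0.92), Notch4 (0.92) and Cd93 (0.91), each over 32 libraries. Podxl encodes podocalyxin and Cd93 a C-type lectin-like receptor, both also in the list of other endothelial genes, and Plxnd1 is a semaphorin receptor. Of these 8, 6 passed the test for lower RNA in hIAPP islets at 16.7 mM, where 11.2% of all genes tested were called lower. The 8 were picked for their likeness to the 10 genes in these same libraries, so their calls are not separate evidence. Sema3f, a secreted semaphorin, fell by 1.03 ± 0.23 (adjusted p = 0.0026) and the Notch receptor gene Notch4 by 0.66 ± 0.20 (adjusted p = 0.0212). Plxnd1 (-0.33 ± 0.17, adjusted p = 0.173) and Tgfb1i1 (-0.22 ± 0.19, adjusted p = 0.412) did not pass.

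A further list of 30 endothelial genes, 29 of them above the filter, showed mostly negative fold changes as well, below 0 for 25 of the 29 between genotypes at 16.7 mM. In hIAPP islets at 16.7 mM, 10 of the 29 were lower and 1 was higher than in mIAPP islets, and the median log2 fold change was -0.67. Of all genes tested, 11.2% were called lower and 9.27% higher there. With glucose, 23 of the 29 were lower and 1 higher in hIAPP islets (median -1.12), where 33.3% of all genes tested were lower and 32.2% higher. In mIAPP islets 17 were lower and 0 higher (median -0.58), where 22.7% of all genes tested were lower and 24.9% higher. The tight junction gene Cldn5 ran from 0.17 to 0.88 CPM in hIAPP islets and from 0.63 to 1.96 CPM in mIAPP islets at 16.7 mM, a fold change of -1.54 ± 0.30 (adjusted p = 0.00069). Gpihbp1, which holds lipoprotein lipase on the capillary wall, fell by 1.45 ± 0.28 (adjusted p = 0.00101), and the matrix gene Mmrn2 by 1.30 ± 0.28 (adjusted p = 0.00246). With the mitochondrial covariate, 1 of the 29 was lower and 1 higher in the genotype comparison at 16.7 mM, beside 4.58% of all genes tested called in either direction. In libraries under 10% mitochondrial 5 were lower and 1 higher, beside 6.61%. Without the replicate block 5 were lower and 1 higher, beside 7.92%.

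Ramp2 was the gene that rose. It encodes a partner of the calcitonin receptor-like receptor and with it forms an adrenomedullin receptor. Its level ran from 19.6 to 25.4 CPM in hIAPP islets at 16.7 mM and from 10.1 to 15.6 CPM in mIAPP islets, with no overlap, and it was higher in 8 of 8 sets (0.74 ± 0.11, adjusted p = 5.22e-05). In the 11.1 mM groups it ran from 6.19 to 12.7 CPM in hIAPP islets and from 9.26 to 17.98 CPM in mIAPP islets. It rose with glucose in hIAPP islets by 1.09 ± 0.11 (adjusted p = 1.48e-08). In mIAPP islets the fold change was 0.11 ± 0.11 (adjusted p = 0.423), and the interaction passed (0.98 ± 0.16, adjusted p = 0.000726). Which islet cells gave this RNA was not measured.

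Vegfa, the ligand of Flt1 and Kdr, ran from 327 to 382 CPM in hIAPP islets and from 293 to 434 CPM in mIAPP islets at 16.7 mM. At 11.1 mM it ran from 293 to 543 CPM and from 255 to 579 CPM. Its fold changes were between -0.08 and 0.02 in all 5 comparisons, with an SE of 0.10 in the 4 differences between groups, and none passed. Pgf and Vegfb, ligands of Flt1 and not of Kdr, were lower in hIAPP islets at 16.7 mM by -0.60 ± 0.15 (adjusted p = 0.00822) and -0.40 ± 0.12 (adjusted p = 0.0214). These were the 2 of 10 ligand and coreceptor genes called there, where 11.2% of all genes tested were called lower. With glucose, 5 of the 10 were lower and 1 higher in hIAPP islets, beside 33.3% and 32.2% of all genes tested. In mIAPP islets 3 were lower and 1 higher, beside 22.7% and 24.9%. Of the 10, the coreceptor gene Nrp1 fell with glucose by 1.01 ± 0.15 in hIAPP islets (adjusted p = 4.2e-06) and by 0.87 ± 0.15 in mIAPP islets (adjusted p = 6.55e-05). The angiopoietin gene Angpt2, made by endothelial cells, rose by 0.52 ± 0.19 in hIAPP islets (adjusted p = 0.0189). Angpt1, the activating ligand of Tek, stood below 1 CPM in every library, from 0 to 0.89 CPM, and was not called. Vegfc, a ligand of the lymphatic receptor Flt4, rose by 1.06 ± 0.31 in mIAPP islets (adjusted p = 0.00835). The other ligand and coreceptor genes with a call were Vegfd, which fell by 1.79 ± 0.36 with glucose in hIAPP islets (adjusted p = 0.000118), and Nrp2, which fell by 0.56 ± 0.18 in hIAPP islets (adjusted p = 0.00849) and by 0.48 ± 0.18 in mIAPP islets (adjusted p = 0.0324). Apln was not called in any comparison.

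Of 6 genes for adhesion molecules and receptors of activated or venular endothelium, 2 passed the filter. Icam1, a leukocyte adhesion receptor also made by other cells, was higher with hIAPP at 16.7 mM, in 7 of 8 sets. Its level ran from 1.81 to 7.69 CPM (median 5.12) in hIAPP islets and from 0.83 to 7.81 CPM (median 1.28) in mIAPP islets, and the groups overlapped. The fold change was 1.49 ± 0.26 (adjusted p = 0.00033), and the interaction passed at 1.50 ± 0.37 (adjusted p = 0.0249). Vcam1 did not pass between genotypes (-0.06 ± 0.20) and fell with glucose by 1.01 ± 0.20 in hIAPP islets (adjusted p = 0.000119) and by 0.80 ± 0.20 in mIAPP islets (adjusted p = 0.0023). Sele, Selp, Ackr1 and Madcam1 were below the filter, with at most 13 counts in any library.

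Markers of the other cells of the islet were read in the same fit. Of all genes tested, 11.2% were called lower and 9.27% higher in hIAPP islets at 16.7 mM. With glucose, 33.3% were lower and 32.2% higher in hIAPP islets, and 22.7% and 24.9% in mIAPP islets. These shares stand beside the counts of every list below. Of 10 pericyte and smooth muscle markers, 2 (Rgs5 and Kcnj8) were lower in hIAPP islets at 16.7 mM, and 9 and 5 were lower with glucose in hIAPP and mIAPP islets. Their summed level at 16.7 mM ran from 62.9 to 161 CPM in hIAPP and from 82.6 to 233 CPM in mIAPP islets. Of 8 macrophage markers, 1 (Cd68) was higher and 0 lower in hIAPP islets at 16.7 mM, and 6 and 7 were lower with glucose. Their summed level ran from 88.9 to 179 CPM in hIAPP and from 89.7 to 198 CPM in mIAPP islets at 16.7 mM, and from 237 to 410 and from 193 to 359 CPM at 11.1 mM. Of 6 fibroblast and stellate markers, 0 were called between genotypes, and 4 and 1 were lower with glucose. Their summed level at 16.7 mM ran from 156 to 873 CPM in hIAPP and from 207 to 702 CPM in mIAPP islets.

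Of 9 beta cell markers, 6 were lower in hIAPP islets at 16.7 mM, and with glucose 8 were lower and 1 higher in hIAPP islets and 4 lower and 1 higher in mIAPP islets. Of 4 lymphatic endothelial markers, 0 were called between genotypes. With glucose, Prox1 rose in both genotypes (0.76 ± 0.14, adjusted p = 5.65e-05, and 0.57 ± 0.14, adjusted p = 0.00203), and Flt4 fell in hIAPP islets (-1.29 ± 0.31, adjusted p = 0.00103). In mIAPP islets at 11.1 mM the mean of Prox1 was 20.6 CPM, beside 3.67 for Flt4, 3.84 for Lyve1 and 0.56 for Pdpn. The cells that gave the Prox1 RNA were not identified, so its rise is not read as a lymphatic endothelial change. Of 7 acinar markers tested, 0 were called between genotypes and 1 was lower with glucose in each genotype. Of 6 ductal markers tested, 1 (Krt7) was higher and 0 lower in hIAPP islets at 16.7 mM; with glucose 2 were higher and 2 lower in hIAPP islets, and 1 was higher and 1 lower in mIAPP islets. Of 6 alpha cell markers, 1 (Slc7a2) was lower in hIAPP islets at 16.7 mM, and with glucose 1 was higher and 1 lower in hIAPP islets, and 1 was higher and 2 lower in mIAPP islets. At 11.1 mM, 0 genes of any list were called between genotypes. No marker of the pericyte, fibroblast, macrophage, beta or alpha cell lists was at 0 in any library, and the part of these cells in the endothelial differences was not tested.

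**Figure D5:**
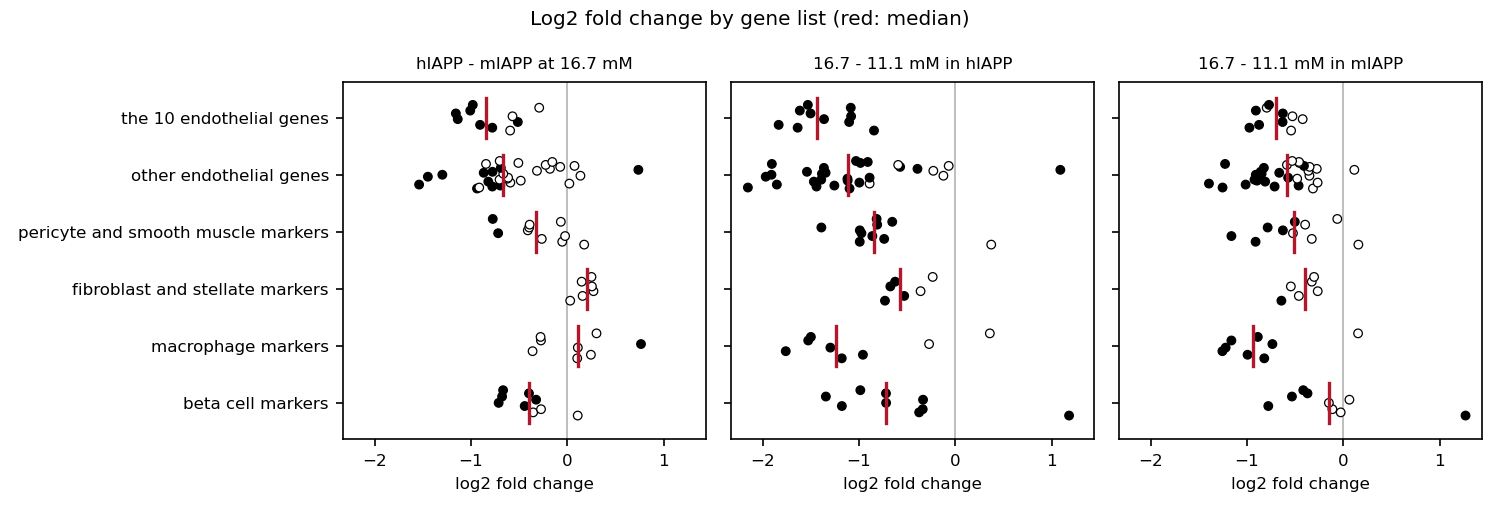
Log2 fold change of each tested gene of 6 lists in 3 comparisons; filled points passed an adjusted p of 0.05 in edgeR and red lines are medians. At 16.7 mM the medians between genotypes are -0.84 for the 10 endothelial genes, -0.67 for the other endothelial genes, -0.33 for pericyte markers, 0.20 for fibroblast markers, 0.11 for macrophage markers and -0.40 for beta cell markers.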

How the data were processed

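Poly(A) RNA of 32 islet libraries was sequenced. The authors' expected counts per gene were deposited unscaled for 36595 genes; the submitters' processing notes name bcl2fastq 1.8.4, kallisto 0.45.0 and GRCm38, and how transcripts were summed is not given in the sources used here. The deposited values are whole numbers and were used as they stand. Libraries summed to 16.1 to 43.7 M counts. Groups and sets were taken from the labels, and 0 sample columns were left unmapped.

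Counts were scaled with TMM and fitted in edgeR 4.0.16 under R 4.3.3 (filterByExpr by group, glmQLFit with robust estimation, glmQLFTest) with 4 groups and the set as a block, leaving 21 residual degrees of freedom. The labels say that each set held all 4 groups. With group means removed, the mean correlation of same-set profiles over genes was 0.17 to 0.36 between groups. Single same-set pairs ran from -0.23 to 0.84, and pairs from different sets were not compared. No 2 libraries were identical. A change was called at an adjusted p under 0.05. Fold changes carry the SE of the fit. Pattern likeness used log2(CPM + 0.5). Alternatives were DESeq2 1.42.0, other filters, no block, other scaling, a mitochondrial covariate, low-share libraries and leaving out sets. The scripts were tested on simulated data. Gene lengths and positions came from GENCODE M21 (GRCm38) and promoters from RefSeq (GRCm38.p6).

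The 10 genes were always named, with up to 4 genes per vascular list by smallest p between genotypes at 16.7 mM, any ligand gene and the 8 genes nearest in pattern; other lists are given as counts, and Prox1, Flt4 and Vcam1 stand among the first 4 of their lists. The 10 genes and all lists were chosen with earlier results of these data known.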

Additional observations from a re-analysis of the deposited data

Results flagged for a closer look

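Of 40 sets of 8 libraries (10 genes in 4 groups), 8 had a highest library set apart from the rest by Dixon's ratio of gap to range (critical value 0.526). That value is passed by about 1 in 20 groups of independent, normally distributed values; the CPM are skewed, the genes covary and all 8 come from sets 1 and 7, so that rate is no yardstick for the count. Set 7 gave 3 of them. Its mIAPP library at 16.7 mM held Pecam1 at 43.2 CPM, next to 22.1 (ratio 0.571), and its hIAPP library at 11.1 mM held it at 36.5 CPM, next to 20.5 (ratio 0.638). The latter held Egfl7 at 40.4 CPM, next to 20.2 (ratio 0.646). Set 1 gave the other 5, all in mIAPP islets. At 16.7 mM they were Kdr at 13.8 CPM (ratio 0.532), Tie1 at 7.85 CPM (ratio 0.534), Tek at 2.39 CPM (ratio 0.573) and Emcn at 10.1 CPM (ratio 0.548). At 11.1 mM it was Kdr at 24.8 CPM (ratio 0.529).

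By the interaction test in edgeR, the glucose difference of 2 listed genes differed between the genotypes. The genes looked through were the 10 endothelial genes and the tested genes of 5 lists. These were the other endothelial (29), ligand and coreceptor (10), activation (2), lymphatic (4) and pericyte (10) lists. Of all genes tested 3.12% were called, so the count of 2 is not read as a result about these lists. The interaction was 0.98 ± 0.16 (log2 scale, SE) for Ramp2 (adjusted p = 0.000726) and 1.50 ± 0.37 for Icam1 (adjusted p = 0.0249). Which cells gave this RNA was not measured.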

How the results depend on the processing

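Over the alternatives, 726 of 790 gene values kept their direction and their side of the threshold; 33 lost a call, 12 gained one and 19 changed sign. Every sign change was in the genotype comparison at 11.1 mM, where no gene was called. Shares of all genes tested are given here for calls in either direction. The count of the 10 genes called lower in hIAPP islets at 16.7 mM was 7, beside 20.5% of all genes tested. It became 2 with the mitochondrial covariate, beside 4.58% of all genes tested, and 3 in libraries under 10% mitochondrial, beside 6.61%. With 1 set or library left out it ranged from 5 (without set 1) to 7, beside 9.89% to 23.2% of all genes tested. For glucose in mIAPP islets the count, 6 (47.5% of all genes tested), became 2 in libraries under 10% mitochondrial, beside 30.2%. It ranged from 4 without set 5 (40% of all genes tested) to 9 without set 8 (39.7%). For glucose in hIAPP islets the count, 10 (65.5% of all genes tested), became 7 with the covariate, beside 19.4%. It ranged from 9 to 10 with 1 set or library left out, beside 59.5% to 66% of all genes tested. For genotype at 11.1 mM and the interaction it was 0 with any of these left out. DESeq2 called 1 gene in the interaction, beside 5.84% of all genes tested. Without the replicate block the counts were 5, 0, 9, 5 and 0 in the order of the plotted comparisons. Of all genes tested, 7.92%, 0.103%, 57.2%, 34.8% and 1.19% were called in that fit, in the same order. The calls lost between genotypes at 16.7 mM were Emcn (adjusted p = 0.0649) and Egfl7 (adjusted p = 0.0815). A minimum of 5 CPM left 8 of the 10 genes for testing, of which 6, 0, 8, 7 and 0 were called. The shares of all genes tested there were 24.6%, 0.109%, 70.1%, 58.3% and 4.44%.

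The sign changes at 11.1 mM were Tek at 0.0095 with no filter, Emcn at -0.016 without the block, and, in libraries under 10% mitochondrial, Pecam1 at 0.093, Kdr at 0.44, Flt1 at 0.29 and Tek at 0.58. With 1 set left out, Kdr ranged from -0.19 to 0.21, Tek from -0.20 to 0.18, Esam from -0.13 to 0.011 and Emcn from -0.11 to 0.22. The cause was not tested.

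Over all genes, the calls between genotypes at 16.7 mM were 3371; they were 1301 without the block, 752 with the covariate, 1133 in the low-share libraries and 1623 to 3842 with 1 set left out. At 11.1 mM the 21 calls became 35 with DESeq2, 12 at 5 CPM and 10 in the low-share libraries. For glucose, 10768 calls in hIAPP islets became 3181 with the covariate and 3881 in the low-share libraries, and 7805 in mIAPP islets became 5181 in the latter. The interaction's 513 became 959 with DESeq2, 196 without the block, 260 with the covariate, 7 in the low-share libraries and 239 to 558 with 1 set left out. Of the calls at 11.1 mM, 85.7% were higher in the main fit and 65.7% with DESeq2's scaling; at 16.7 mM, 45.2% were higher, 57.0% with the covariate and 66.3% in the low-share libraries. No scaling moved the median of all genes by 0.1. Tek had 4 to 106 counts per library.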
